A study of Mus musculus with 36 samples.

Results

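Hba-a1, Hba-a2, Hbb-bs, Hbb-bt and Alas2 are the 5 hemoglobin and red cell genes described here, out of 56980 genes in a table of raw counts from mouse brain. They were chosen by name after their measured levels and differences between groups in these same samples were known, so their levels and fold changes are a description, and counts of them past a threshold stand only beside the share of all genes past it. All 5 passed the filter on low counts, which kept 25601 genes. The study measured polyA-enriched RNA by sequencing in 36 mice. The mice, 37 to 45 days old, either lacked Ndufs4 (KO) or were wild type (WT). By gavage on 3 days they received vehicle or CP2, a compound that inhibits mitochondrial complex I. Ndufs4 encodes an accessory subunit of complex I. The tissue label reads brain, and the design text names hippocampus and cortex without giving the share of each.

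Genotype, treatment and a letter F or M in the sample titles define 8 groups. KO CP2 F, KO vehicle F, WT CP2 F, WT vehicle F, KO CP2 M and WT CP2 M hold 5 samples each, and KO vehicle M and WT vehicle M hold 3 each. Samples are named by group and by the L number in the title. Every number occurs once, so no samples were paired. The labels give no line, no breeding scheme and no statement on whether blood was flushed from the vessels before the tissue was taken. Nothing in them goes beyond 1 sample per title, so p-values measure the spread between these samples.

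Hemoglobin is a tetramer of alpha and beta chains, each holding a heme group that binds oxygen. In adult mice the alpha chains come from the paired genes Hba-a1 and Hba-a2 and the beta chains from the paired genes Hbb-bs and Hbb-bt. Alas2 is the erythroid form of 5-aminolevulinate synthase, the first enzyme of heme synthesis, while Alas1 encodes the form found in most tissues. Maturing red cells carry these transcripts at very high levels, and globin transcripts have also been described in neurons, among them dopaminergic neurons. Neuroglobin (Ngb) and cytoglobin (Cygb) are related oxygen-binding proteins of nervous and supporting tissue.

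The promoters are shown because the 5 genes varied together across samples. Each line gives the 150 bases before the start site, 5′ to 3′, from RefSeq on GRCm38.p6, a different build from the authors' GRCm39, with searched motifs in capitals. The stretches lie at chr11:32283522-32283671 (plus strand) for Hba-a1, chr11:32296342-32296491 (plus strand) for Hba-a2, chr7:103827929-103828078 (minus strand) for Hbb-bs, chr7:103813924-103814073 (minus strand) for Hbb-bt and chrX:150547267-150547416 (plus strand) for Alas2.
Hba-a1: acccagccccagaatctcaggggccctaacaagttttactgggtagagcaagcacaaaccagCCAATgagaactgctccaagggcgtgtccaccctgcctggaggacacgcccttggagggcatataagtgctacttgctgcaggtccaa
Hba-a2: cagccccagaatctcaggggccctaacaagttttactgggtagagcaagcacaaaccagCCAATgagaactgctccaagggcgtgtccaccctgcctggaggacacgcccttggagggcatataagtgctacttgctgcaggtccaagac
Hbb-bs: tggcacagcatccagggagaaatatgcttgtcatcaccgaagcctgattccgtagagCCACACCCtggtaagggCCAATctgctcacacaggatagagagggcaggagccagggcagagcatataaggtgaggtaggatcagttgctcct
Hbb-bt: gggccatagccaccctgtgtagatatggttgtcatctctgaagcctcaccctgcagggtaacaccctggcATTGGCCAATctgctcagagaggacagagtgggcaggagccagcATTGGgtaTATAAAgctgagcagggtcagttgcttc
Alas2: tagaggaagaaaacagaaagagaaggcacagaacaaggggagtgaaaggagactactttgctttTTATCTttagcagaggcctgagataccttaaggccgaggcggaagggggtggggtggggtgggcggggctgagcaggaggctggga

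The searches covered 250 bases before the start site on both strands in 27025 promoters. CCAAT, the core of the CCAAT box, was found in the 4 globin promoters and in 34.5% of all promoters. CCACACCC, a form of the CACCC box, was found in Hbb-bs and in 3.19% of all promoters. The GATA-type motif AGATAA was found in Hbb-bs and Alas2 and in 10.3% of all promoters, and TGATAA in Hba-a1 and Hba-a2 and in 8.16% of all promoters. TATAAA was found in Hbb-bt and Alas2 and in 12.97% of all promoters. In Hbb-bs, Hba-a1 and Hba-a2 the GATA-type match lies upstream of the printed stretch. So does the TATAAA match of Alas2, which is on the opposite strand, 209 to 204 bases before the start site. The printed stretches of Hba-a1 and Hba-a2 were 96.1% identical and those of Hbb-bs and Hbb-bt 70.9% identical. These matches are letters in a window and no binding was measured.

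Both gene pairs are near-identical copies, which limits how reads can be assigned to a single copy. The longest open reading frames of Hba-a1 and Hba-a2 have 429 bases and differ at 1 base, C381T, counted from the A of the start codon with the base of Hba-a1 first. Those of Hbb-bs and Hbb-bt have 444 bases and differ at 1 base, C417T, with the base of Hbb-bs first. The stretches around those bases, taken from GENCODE M21 transcripts, are shown with the differing base in capitals.
Hba-a1: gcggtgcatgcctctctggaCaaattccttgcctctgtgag
Hba-a2: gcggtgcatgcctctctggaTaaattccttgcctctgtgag
Hbb-bs: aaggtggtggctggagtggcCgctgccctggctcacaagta
Hbb-bt: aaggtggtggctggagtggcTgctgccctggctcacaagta

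Of the windows of 50 bases in the main transcript, 67.5% for Hba-a1, 86.9% for Hba-a2, 65.8% for Hbb-bs and 58.3% for Hbb-bt also occur in the other copy. The table has a summary row for reads aligned at several places, which holds 4.05% to 5.91% of its counts per sample. The read length, and whether such reads were also counted to a gene, are not given in the sources used here. The split between copies is therefore uncertain, and the sums over a pair are uncertain where such reads were dropped.

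Depth ran from 4.61e+07 to 8.86e+07 gene counts in a sample (median 5.47e+07). Levels are given as CPM, counts scaled to 1e+06 of the TMM-adjusted library size. As a check of the labels, Ndufs4 was lower in every KO sample than in every WT sample within each of the 4 genotype comparisons. It stood at 30.2 to 37.1 CPM in KO vehicle F and at 45.2 to 58.9 CPM in WT vehicle F. Transcript counts of the KO samples thus stayed well above 0, and a count over a whole gene does not show which part was deleted.

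Globin transcripts were present in every sample. The 4 globin genes summed to between 21.9 and 753 CPM, a 34.4-fold range, and took 0.00207% to 0.0747% of a sample's gene counts. The 4 highest samples were all WT: L311 of WT CP2 F at 753 CPM, L300 of WT vehicle M at 634 CPM, L285 of WT vehicle M at 427 CPM and L277 of WT vehicle F at 377 CPM. The next sample, L295 of WT vehicle F, was at 197 CPM. Each of the 5 genes had those same 4 samples as its own 4 highest. The lowest sums were in KO samples: L298 of KO CP2 M at 21.9 CPM, L234 of KO CP2 F at 36.1 CPM and L310 of KO vehicle M at 36.7 CPM. Over the 18 KO samples the sum ran from 21.9 to 188 CPM (median 82.9), and over the 18 WT samples from 71.6 to 753 CPM (median 123), so the genotypes overlapped. In bulk tissue, fewer cells carrying a transcript and less RNA per cell cannot be told apart.

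**Figure D1:**
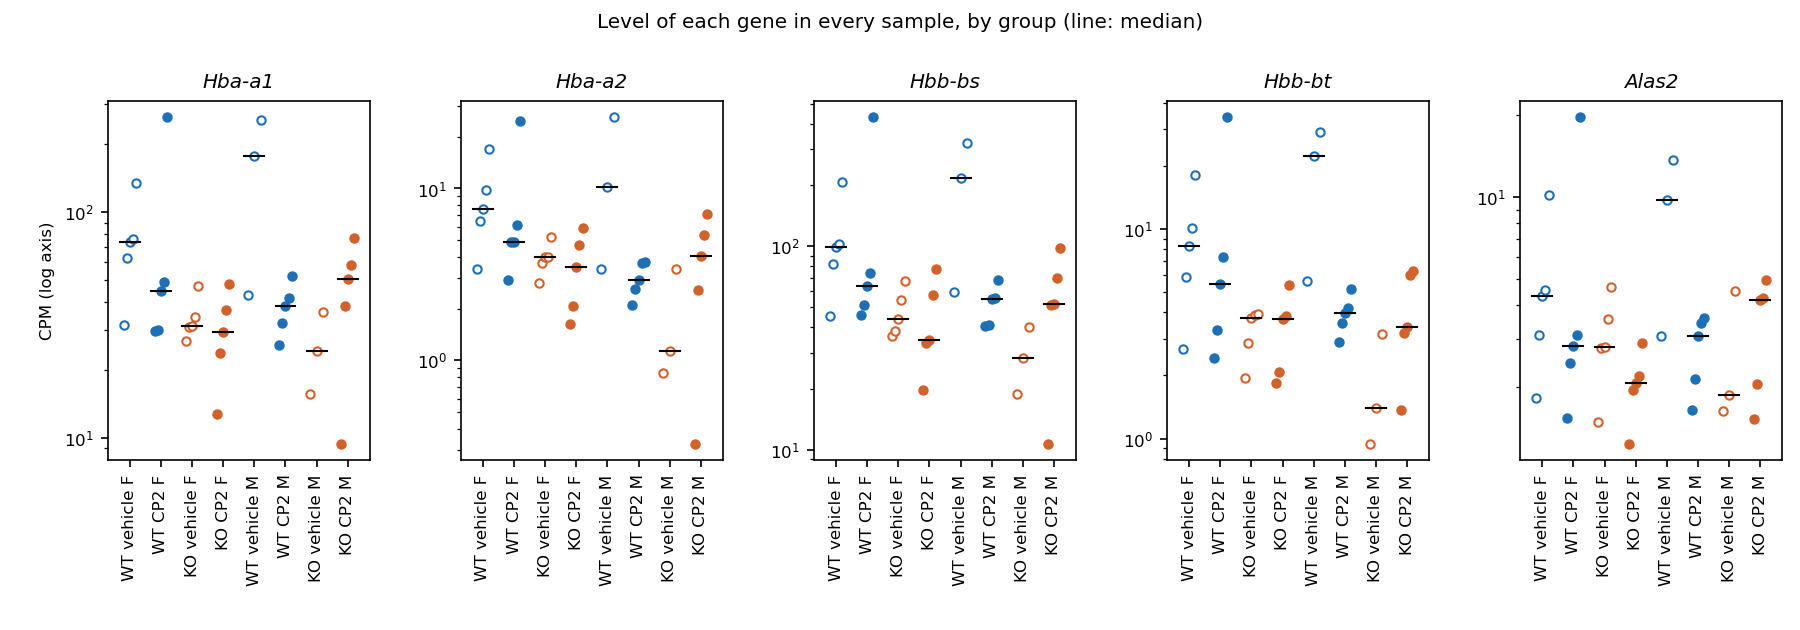
CPM of each of the 5 genes (log axis) in every sample of the 8 groups, with open points for vehicle, filled points for CP2, blue for WT, orange for KO and a line at the group median. One WT CP2 F sample, L311, stands at 430 CPM for Hbb-bs while the other 4 of its group lie between 45.9 and 74.1 CPM.

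Hbb-bs, the more abundant of the beta globin transcripts, shows the pattern in full. In WT vehicle F it stood at 45.5, 81.6, 99.1, 103 and 207 CPM in L252, L278, L296, L295 and L277. In KO vehicle F it stood at 36.02, 38.2, 44.1, 54.5 and 67.5 CPM in L246, L282, L283, L281 and L279. The KO samples filled the lower end and overlapped with L252 of the WT group. In WT vehicle M it stood at 59.6, 217 and 323 CPM in L303, L285 and L300, and in KO vehicle M at 18.9, 28.3 and 40.0 CPM in L310, L322 and L319. Those groups did not overlap, and the WT samples were themselves spread over a 5.41-fold range.

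Under CP2 the F groups of Hbb-bs overlapped. WT CP2 F stood at 45.9, 51.3, 64.1, 74.1 and 430 CPM in L240, L257, L272, L228 and L311, and KO CP2 F at 19.6, 33.4, 34.4, 57.6 and 77.0 CPM in L234, L201, L233, L227 and L216. Apart from L311 and the 3 lowest KO samples, both groups lay between 45.9 and 77.0 CPM. WT CP2 M stood at 40.6, 40.8, 55.3, 55.4 and 68.1 CPM in L267, L289, L263, L262 and L259, and KO CP2 M at 10.7, 51.4, 51.9, 69.7 and 97.9 CPM in L298, L299, L291, L292 and L266. Of the KO CP2 M samples, L298 lay below and L292 and L266 above all WT CP2 M samples. The order of the group medians, from high to low, was WT vehicle M (217 CPM), WT vehicle F (99.1), WT CP2 F (64.1), WT CP2 M (55.3), KO CP2 M (51.9), KO vehicle F (44.1), KO CP2 F (34.4) and KO vehicle M (28.3). Each neighbouring pair in that order overlapped.

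Hba-a1, the more abundant alpha globin transcript, followed Hbb-bs closely. Its mean in WT vehicle M was 159 ± 108 CPM (SD, n = 3). In WT CP2 F it was 83.5 ± 101 CPM (SD, n = 5), and WT vehicle F came to 75.9 ± 37.5 CPM (SD, n = 5). The other groups had means of 25.5 to 46.7 CPM. The SD of WT CP2 F exceeds its mean because L311 stood at 263.7 CPM and the next sample at 49.2 CPM.

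Hba-a2 and Hbb-bt, the second copies, were counted far below their partners. Hba-a2 ran from 0.329 to 26.0 CPM and Hbb-bt from 0.947 to 34.1 CPM. Hba-a2 came to 3.47% to 16.4% of Hba-a1, with a median of 11.6% in the 20 F samples and 8.51% in the 16 M samples. Hbb-bt came to 4.95% to 12.8% of Hbb-bs, with medians of 7.59% in F and 7.55% in M. These shares rest on how reads common to both copies were assigned.

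Alas2 had the lowest mean CPM of the 5 over all samples, though not in KO vehicle M, and followed the globins. It ran from 1.24 CPM in L234 of KO CP2 F to 19.7 CPM in L311 of WT CP2 F. In WT vehicle M its 3 samples stood at 3.08, 9.74 and 13.6 CPM, and in KO vehicle M at 1.64, 1.87 and 4.53 CPM. Here L319 of KO vehicle M exceeded L303 of WT vehicle M, so the groups overlapped. Relative to the globin sum, Alas2 ranged from 1.61% to 7.01%, with a median of 3.29% in KO and 2.33% in WT samples.

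The balance of alpha to beta globin was steadier than the level. The ratio of Hba-a1 plus Hba-a2 to Hbb-bs plus Hbb-bt ranged from 0.621 to 0.961 with a median of 0.738, a 1.55-fold range beside the 34.4-fold range of the sum. The median was 0.711 in F and 0.802 in M samples, and 0.790 in KO and 0.721 in WT samples. The lowest ratio was that of L311, the sample with the most globin. Group means removed, the correlation with the log2 globin sum over 36 samples was 0.998 for Hbb-bs, 0.995 for Hba-a1, 0.932 for Hba-a2, 0.926 for Hbb-bt and 0.859 for Alas2. The first 4 are part of that sum, and all share library depth.

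**Figure D2:**
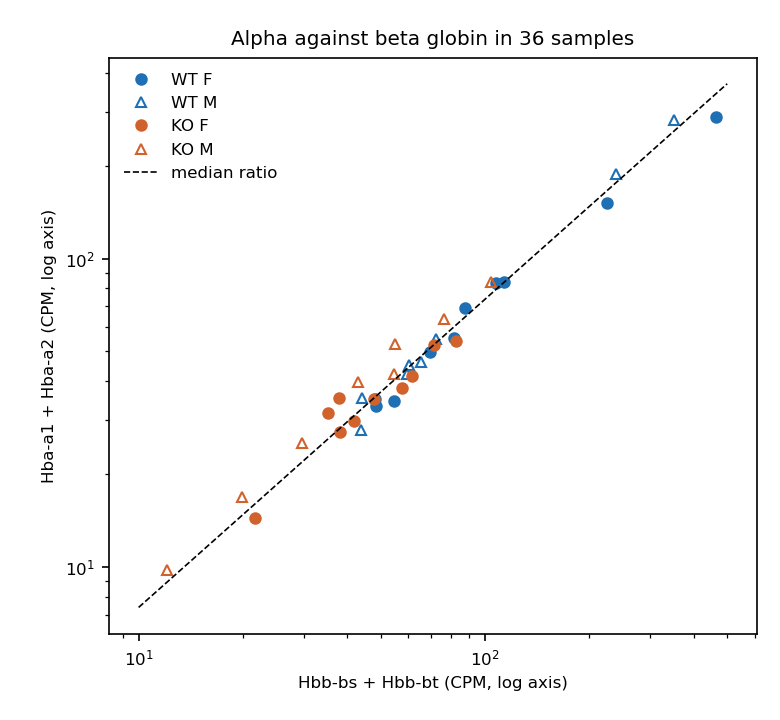
Summed CPM of the alpha globins Hba-a1 and Hba-a2 against that of the beta globins Hbb-bs and Hbb-bt, both on log axes, 1 point per sample, with circles for F, triangles for M and a dashed line at the median ratio of 0.738. The points follow the line from the lowest to the highest sample, with ratios between 0.621 and 0.961.

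Levels between genes can be compared only per length. Over the exons of GENCODE M21, the median level per kilobase was 71.5 CPM for Hbb-bs, 47.2 for Hba-a1, 5.78 for Hba-a2, 5.50 for Hbb-bt and 1.25 for Alas2. On the same scale Cygb stood at 28.2 CPM, Ngb at 6.72 and Alas1 at 7.79. The general form of the heme synthesis enzyme was thus counted above the erythroid form in the median sample, and its range was narrow, 6.74 to 8.97 CPM per kilobase against 0.517 to 8.19 for Alas2.

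The study's design asks what loss of Ndufs4 and inhibition of complex I change in brain RNA. In the genotype comparison with vehicle, all 5 genes were lower in KO than in WT. In F the log2 fold change was -1.16 ± 0.57 (SE) for Hbb-bs, -1.15 ± 0.56 for Hba-a1 and -0.64 ± 0.56 for Alas2. In M it was -2.78 ± 0.78 for Hbb-bs, -2.64 ± 0.75 for Hba-a1, -3.38 ± 0.82 for Hbb-bt and -1.72 ± 0.73 for Alas2. The median over the 5 genes was -1.16 in F and -2.78 in M, and the median over all tested genes 0.03 and 0.01.

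With CP2 the genotype difference was of the same sign in F and near 0 in M. For Hbb-bs the log2 fold change of KO against WT was -1.58 ± 0.58 (SE) in F and 0.11 ± 0.57 in M. For Alas2 it was -1.51 ± 0.57 in F and 0.30 ± 0.56 in M. The F value rested on L311: without it Hbb-bs came to -0.41 and Alas2 to -0.25. In the vehicle groups, leaving out L277 moved Hbb-bs in F to -0.77 and Alas2 to -0.17. No sample left out turned the sign of any of these genes with vehicle in F or M, or with CP2 in F. With vehicle in M Hbb-bs ranged from -3.22 to -2.25. There each such fit kept L285 (217 CPM of Hbb-bs) or L300 (323 CPM), the high WT samples. It therefore cannot show what rests on both, and nothing is read from the kept sign.

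CP2 against vehicle gave no common direction. In WT M all 5 genes were lower with CP2, with log2 fold changes of -1.94 ± 0.64 (SE) for Hbb-bs and -1.67 ± 0.62 for Alas2. In KO M they were higher, 0.96 ± 0.68 for Hbb-bs and 0.35 ± 0.65 for Alas2. In KO F Hbb-bs came to -0.11 ± 0.57 and in WT F to 0.31 ± 0.56. The WT F value turned to -0.86 without L311. The WT M comparison uses the same 3 WT vehicle M samples as the genotype comparison in M, L285 and L300 among them, so the values are not independent.

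**Figure D3:**
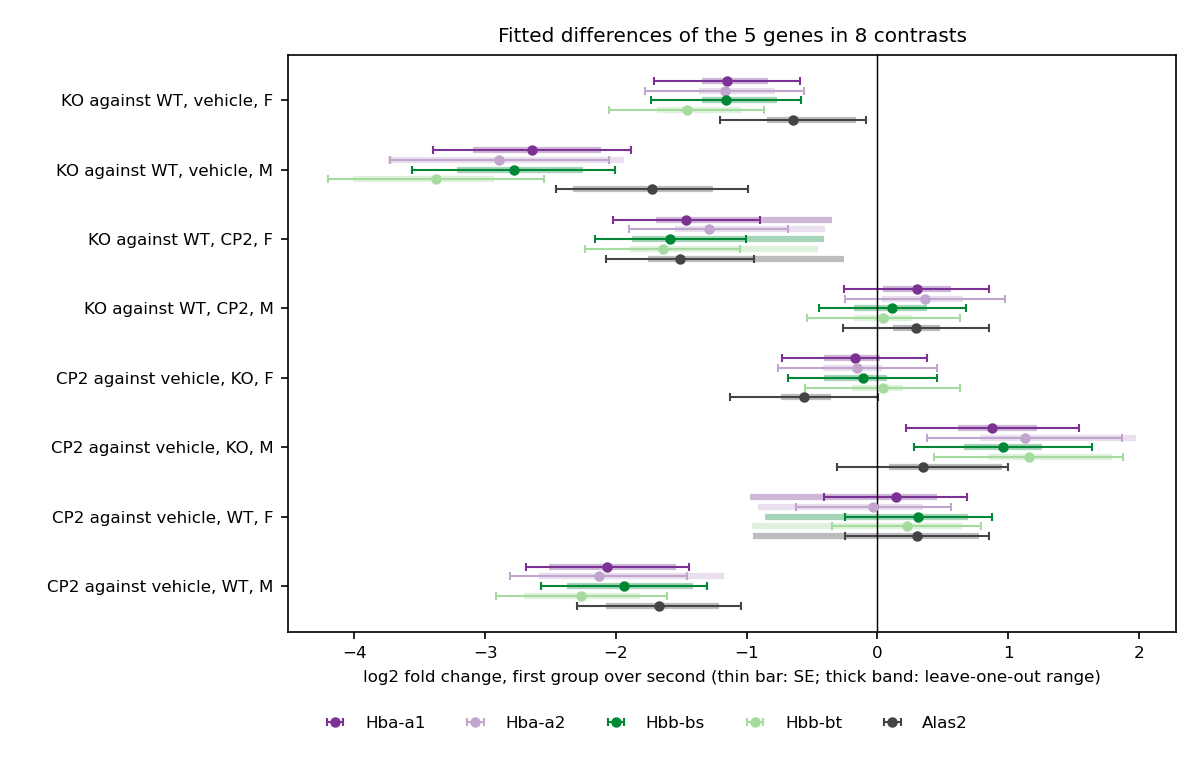
Log2 fold change of the 5 genes in 8 comparisons, with points for the fitted value, thin bars for its SE and thick bands for the range over fits that each leave out 1 sample. For KO against WT with CP2 in F the band of Hbb-bs reaches from -1.88 to -0.41, and for CP2 against vehicle in WT F it crosses 0.

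None of the 5 genes was called by edgeR's quasi-likelihood test at an adjusted p under 0.05 in any of the 8 comparisons, and since the genes were chosen from these contrasts, nothing is read from the counts. The share of all 25601 tested genes called was 4.96% for KO against WT with vehicle in F and 0.516% in M. It was 2.00% with CP2 in F and 9.99% in M. For CP2 against vehicle it was 0.0859% in KO F, 5.10% in KO M, 0% in WT F and 0% in WT M. At an unadjusted p under 0.05, 2 of the 5 genes were lower in KO with vehicle in F (10.2% of all genes), 5 in M (6.40%) and 5 with CP2 in F (8.21%). With CP2 in WT M 5 were lower (1.31%). In the other 4 comparisons 0 were lower (1.36% to 11.7% of all genes) and 0 were higher. DESeq2 called 4 of the 5 in the vehicle M genotype comparison (3.93% of the genes it tested). It called 0 of them in the other comparisons (0% to 15.8% of the genes it tested).

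Groups without overlap, lower in the first group, were found for 4 of the 5 genes between KO and WT given vehicle in M (10.3% of all genes), the exception being Alas2. For CP2 against vehicle in WT M they were found for Hbb-bt alone (2.05% of all genes).

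Other genes of red cells were at or near 0. Of 22 erythroid genes outside the 5, 21 were in the table, 14 passed the filter and 5 had a mean of at least 1 CPM. Those 5, Sptb, Tmcc2, Car2, Bpgm and Tal1, are also expressed outside red cells. Slc4a1, the anion exchanger of the red cell membrane, ran from 0 to 0.60 CPM with 0 counts in 7 samples. It was highest in L285 of WT vehicle M. Its correlation with the globin sum, group means removed, was 0.54, rank 57 of 25596 genes. That was the highest of the 14 tested erythroid genes, which reached down to -0.36 for Trim58 and had a median of 0.03. Gata1, an erythroid transcription factor, reached at most 0.183 CPM. Klf1, another erythroid transcription factor, reached 0.908 CPM. A count of 0 allows up to 0.0350 to 0.0663 CPM per sample, taken as 3 counts and for counting error only.

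The embryonic beta-like genes Hbb-bh1, Hbb-bh2 and Hbb-bh0 had 0 counts in all 36 samples. Hbb-y reached at most 0.318 CPM and Hba-x 0.196 CPM. Of 11 other globin genes, 6 were tested and 0 were called in any comparison by edgeR. Ngb ran from 5.60 to 23.5 CPM and Cygb from 45.7 to 87.6 CPM. In L311, the sample with the most hemoglobin transcript, Ngb stood at 9.94 CPM and Cygb at 72.7 CPM. Its group, WT CP2 F, ran from 6.79 to 15.6 CPM for Ngb and from 55.8 to 73.0 CPM for Cygb. The plot of other genes against the globin sum shows all samples.

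**Figure D4:**
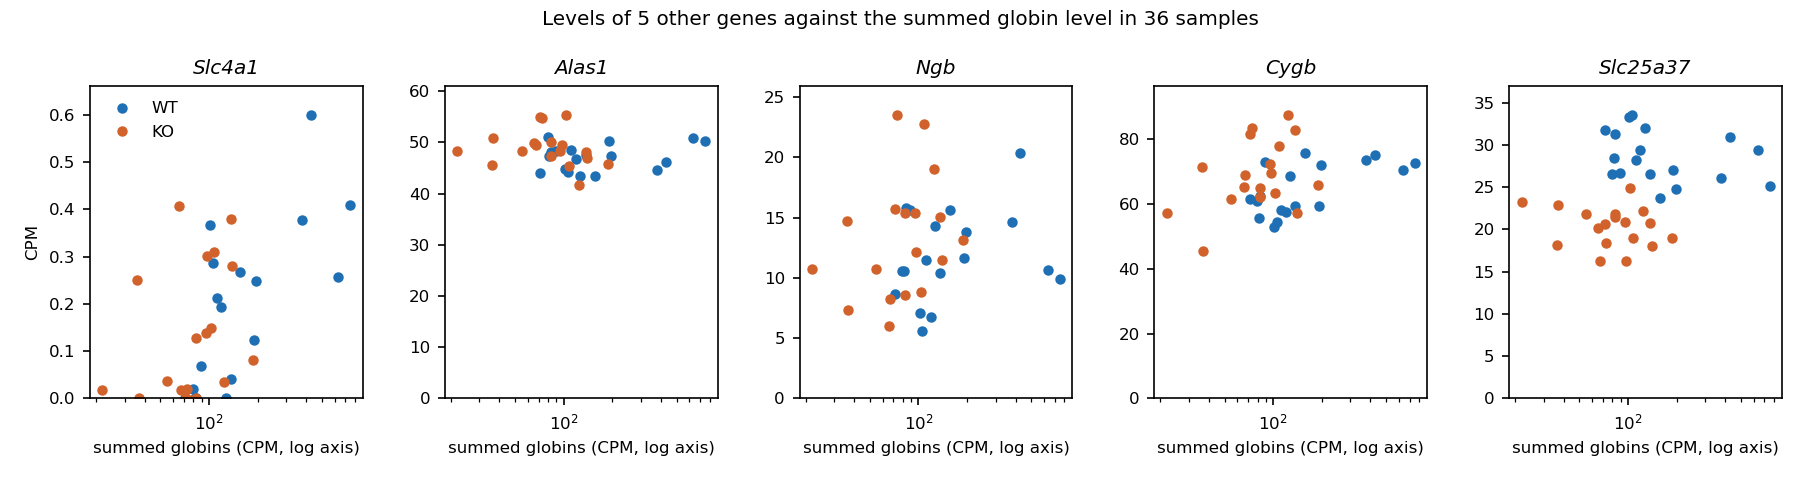
CPM of Slc4a1, Alas1, Ngb, Cygb and Slc25a37 (linear axes from 0) against the summed globin CPM (log axis), 1 point per sample, blue for WT and orange for KO. Alas1 stays between 41.6 and 55.4 CPM over the whole globin range, and Slc4a1 stays at or below 0.60 CPM.

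Residual blood and globin in neurons are the sources usually named for such transcripts in brain, and the data allow the globin sum to be set beside markers of each. Over 36 samples, group means removed, 15 relations were tested by permutation within groups (two-sided, 100000 resamples), and none passed at an adjusted p under 0.05. The largest was with Cygb, at Pearson r 0.46 (permutation p = 0.0142, adjusted 0.213) and Spearman rho 0.43 (p = 0.0220, adjusted 0.330). It was 0.37 without L311 and L298, the samples farthest from the median globin level. The erythroid genes outside the 5 gave r 0.35 (permutation p = 0.0843, adjusted 0.632) and rho 0.33 (p = 0.0838, adjusted 0.491), and 0.26 without those samples.

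Of the blood cell lists, neutrophil genes gave r 0.19 (0.04 without L311 and L298), platelet genes 0.11 (0.18) and lymphocyte genes 0.03 (0.09). Vessel markers gave -0.11 (-0.28) for endothelium and -0.01 (-0.17) for mural cells. Choroid plexus genes gave 0.21 (near 0) and meningeal fibroblast genes 0.01 (-0.23). Dopaminergic neuron genes gave 0.18 (0.02), general neuron genes -0.06 (0.11) and Ngb 0.06 (0.01). Several of these values were thus small and moved, or changed sign, with 2 samples. The share of reads outside genes gave -0.12 (-0.06), the total gene count 0.15 (0.10) and the number in the sample's title 0.24 (0.03). Of the blood cell lists, 1 of 12 neutrophil, 3 of 9 platelet and 2 of 11 lymphocyte genes had a mean of at least 1 CPM. The most abundant of each list were Csf3r, a neutrophil growth factor receptor, at 2.86 to 8.48 CPM, Itga2b, a platelet integrin, at 1.48 to 4.27 CPM, and Ighm, the heavy chain of immunoglobulin M, at 6.48 to 26.4 CPM. Csf3r, at r -0.33 with the globin sum, was the only neutrophil gene with a mean of at least 1 CPM. S100a9, the next of that list, had a mean of 0.550 CPM. Of 7 dopaminergic neuron genes 6 had a mean of at least 1 CPM. The most abundant of them, Slc6a3, ran from 0.167 to 67.6 CPM, Ddc from 8.23 to 41.9 CPM and Slc18a2 from 3.41 to 42.1 CPM. The part of blood and of neurons in the globin level was not tested.

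**Figure D5:**
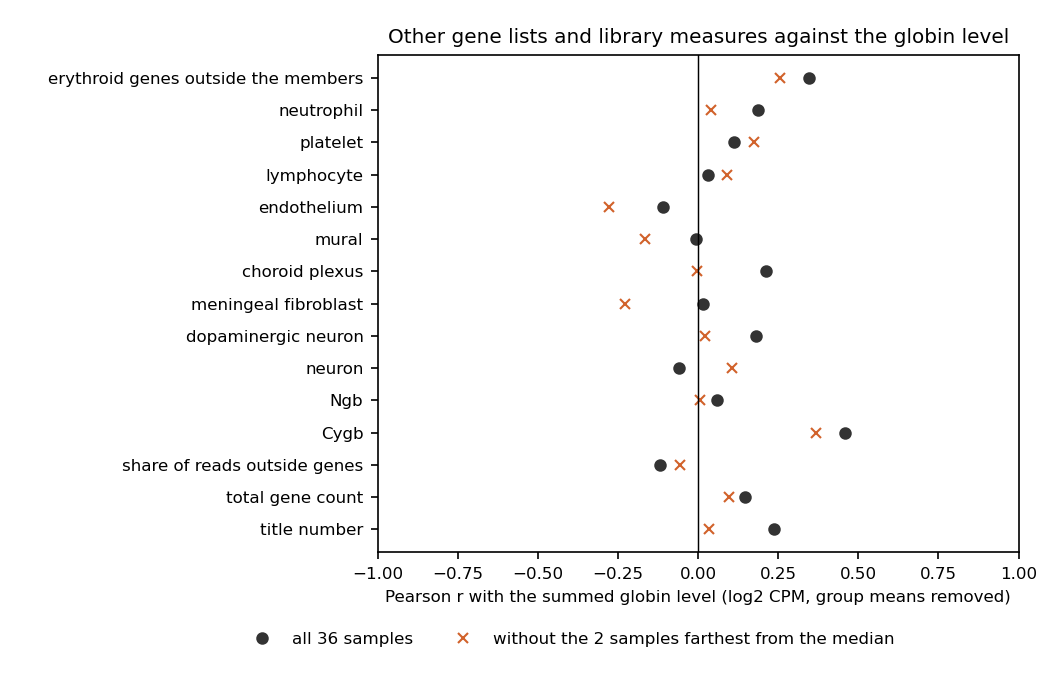
Pearson r of the log2 globin sum with the mean log2 CPM of 10 marker lists, with Ngb and Cygb, and with 3 library measures, group means removed, over 36 samples (dots) and without L311 and L298 (crosses). The dots lie between -0.12 for the share of reads outside genes and 0.46 for Cygb.

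The genes most like the globins over the 36 samples, by the same correlation, were Pfdn4 (r 0.72), Sub1 (0.65), 2310057M21Rik (0.65), Hnmt (0.64), Itgad (0.64), Mir376c (0.63), Mt1 (0.62), Zfp354a (0.62), mt-Co2 (0.61) and Ube2l6 (0.61). Among 25596 genes 13 had r above 0.6 and 9 below -0.6, and the lowest value was -0.68. Pfdn4 encodes a prefoldin subunit and Mt1 a metallothionein. All 10 fall short of the value for Alas2, 0.859. Alas2 was chosen with its levels in these samples known, so nothing is read from that order.

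The lists of other genes were also chosen with earlier results of these data known, so their calls and p-values are a description. Of 10 iron genes tested, 5 were called in at least 1 comparison. Of their 8 calls, 3 were for KO against WT with CP2 in M (9.99% of all genes called), 2 for CP2 against vehicle in KO M (5.10%), 2 for the vehicle F genotype comparison (4.96%) and 1 for CP2 in F (2.00%). With the share of reads outside genes in the fit, 6 of the 8 were lost. How many of all genes were called in that fit is not given, so nothing is read from the losses. Slc25a37 encodes mitoferrin-1, a mitochondrial iron importer prominent in maturing red cells. It was lower in KO than in WT samples in all 4 genotype comparisons and was called in 3 of them. Its log2 fold change was -0.36 ± 0.09 (SE) with vehicle in F (edgeR adjusted p = 0.0209), -0.44 ± 0.09 with CP2 in F (0.00939) and -0.72 ± 0.09 with CP2 in M (3.42e-06). With vehicle in M it was -0.42 ± 0.12 (0.103). Slc25a37 stood at 16.2 to 24.9 CPM in KO CP2 F and 25.2 to 29.4 CPM in WT CP2 F, and at 16.2 to 23.3 CPM in KO CP2 M and 26.5 to 33.6 CPM in WT CP2 M. It stood at 18.4 to 22.2 CPM in KO vehicle F and 23.7 to 31.3 CPM in WT vehicle F, and at 21.8 to 22.9 CPM in KO vehicle M and 28.3 to 31.0 CPM in WT vehicle M. KO and WT samples did not overlap in any of these 4 comparisons, a pattern seen in the KO-lower direction for 2.87% of all genes with vehicle in F, 10.3% in M, 1.77% with CP2 in F and 6.33% in M. The call with vehicle in F was lost without L246 (edgeR adjusted p = 0.0745), L281 (0.0536), L252 (0.0907) or L296 (0.0581), and with the share of reads outside genes in the fit (0.15), where the log2 fold change was -0.34.

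Slc25a37 was set apart from the globins by its range, 16.2 to 33.6 CPM over all samples, and L311 at 25.2 CPM was the lowest of its group. The other mitochondrial iron importer, Slc25a28, rose in KO with vehicle in F (log2 fold change 0.44 ± 0.11, edgeR adjusted p = 0.0153), a call lost without L281 (0.0854) and, at a log2 fold change of 0.24, with the share of reads outside genes in the fit (0.393). Reads outside genes ran from 6.19% to 11.7% in KO vehicle F and from 5.09% to 7.04% in WT vehicle F. Their share thus went partly with genotype in this comparison, which holds for Slc25a37 as well. Ftl1, the ferritin light chain, rose in KO with CP2 in M (0.45 ± 0.08, edgeR adjusted p = 0.000349) and lost its call with that covariate (0.30, 0.0787).

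Of 11 heme synthesis genes, all tested, 1 rose and 1 fell, both for KO against WT with CP2 in M. Fech, which inserts iron into protoporphyrin to make heme, rose by 0.24 ± 0.07 (SE) on the log2 scale (edgeR adjusted p = 0.0243). Ppox, an earlier step, fell by 0.40 ± 0.13 (edgeR adjusted p = 0.0419). Alas1 was not called, with log2 fold changes between -0.09 and 0.08. Of 10 genes of heme breakdown and hemoglobin scavenging, 2 rose in that comparison, Blvrb by 0.52 and Hmox2 by 0.19. Of 4 tested genes of erythropoietin signalling 1 rose there, Stat5a by 0.76, and of the 14 tested erythroid genes 1, Bpgm, which makes the regulator of oxygen binding bisphosphoglycerate (0.27 ± 0.07, 0.0128). Each of these 6 calls was lost with the share of reads outside genes in the fit, where the log2 fold change was 0.20 for Fech, -0.21 for Ppox, 0.31 for Blvrb, 0.11 for Hmox2, 0.86 for Stat5a and 0.13 for Bpgm. That share ran from 5.18% to 9.06% in KO CP2 M and from 9.05% to 13.2% in WT CP2 M, so it nearly separated the groups, and it and genotype can hardly be told apart here. The share of all genes called in this comparison was 9.99%. Leaving out 1 sample ended the call of Bpgm (without L266 or L263, edgeR adjusted p up to 0.0626), of Fech (L299, L262, L263 or L289, up to 0.0896) and of Ppox (L291, L292, L298, L259, L262 or L267, up to 0.145). The same held for Blvrb (L266, L291, L292, L299, L262 or L289, up to 0.119), Stat5a (all but L266, L298 and L267, up to 0.102) and Hmox2 (all but L266 and L267, up to 0.157). Bpgm also rose for CP2 against vehicle in KO M (0.27 ± 0.08, edgeR adjusted p = 0.0474), a call ended without L266, L292, L299, L310, L319 or L322 (up to 0.243). It also ended with the share of reads outside genes in the fit (0.12, edgeR adjusted p = 0.771), without TMM (0.142) and without the low count filter (0.0672). The globins were not lower in KO in this comparison.

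Of the 12 lists of markers for other cells, genes were called by edgeR in 2 comparisons. For KO against WT with CP2 in M, where 9.99% of all tested genes were called, 4 of 7 meningeal fibroblast, 3 of 5 microglia, 2 of 5 astrocyte, 2 of 12 endothelium and 1 of 5 oligodendrocyte genes rose. For CP2 against vehicle in KO M, where 5.10% were called, 2 microglia, 1 endothelium and 1 oligodendrocyte gene rose. In the other 6 comparisons, where 0% to 4.96% of all genes were called, 0 marker genes were. Where almost no gene was called, a count of 0 says nothing of these lists. The part of these cells in the globin level was not tested. All of these calls except that of Abcb1a, an endothelial drug exporter, were lost with the share of reads outside genes in the fit. That share nearly separated KO CP2 M from WT CP2 M and fully separated KO CP2 M from KO vehicle M. In these 2 comparisons it can hardly be told apart from genotype or treatment, so nothing is read from the losses.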

How the data were processed

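The deposited file holds raw counts per Ensembl gene, made by the authors with STAR and HTSeq on GRCm39 per the submitters' processing notes, with no versions, annotation release or strand setting given in the sources used here. Its 5 summary rows, 12.0% to 19.6% of all rows' counts in a sample, were left out. Symbols from GENCODE M21 matched 52073 of 56980 identifiers (91.4%). Ahsp and Tf were not matched by symbol. Single values of some erythroid list genes are not reported here.

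Counts were fitted in 1 model over 36 samples with edgeR 4.0.16 in R 4.3.3 (TMM, filterByExpr, quasi-likelihood test, Benjamini-Hochberg over 25601 genes, called at adjusted p under 0.05). DESeq2 1.42.0, library sizes without TMM, no low count filter, a covariate for reads outside genes and leaving out each sample were alternatives. Log2 levels used a prior count of 2. The procedures were tested on simulated data. The 5 genes and the 18 lists were chosen with earlier results of these data known. Named genes are the 5, Ndufs4, Ngb, Cygb, erythroid genes, up to 3 called or most abundant genes per list, and the 10 most like the globins.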

Additional observations from a re-analysis of the deposited data

Results flagged for a closer look

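Of 42 sets of values from groups of 5 samples, 8 held 1 sample far from the others by Dixon's test, which chance gives in about 1 in 20. In WT CP2 F that sample was L311 in each case: 263.7 CPM for Hba-a1, 24.6 for Hba-a2, 430 for Hbb-bs, 34.1 for Hbb-bt, 19.7 for Alas2 and 753 for the globin sum, which ran to 137 CPM in the rest of the group. These 6 share 1 library and are not independent, and the levels were known when the genes were chosen, so they describe values already seen. The alpha to beta globin ratio was set apart in L201 of KO CP2 F, at 0.896 with the next sample at 0.719, and in L246 of KO vehicle F, at 0.931 with the next at 0.737.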

How the results depend on the processing

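Between KO and WT given vehicle in M, edgeR called 0 of the 5 genes (0.516% of all genes) and DESeq2 4 (3.93%). Library sizes without TMM gave 1, and leaving out each sample gave 0 to 1, the call coming without L303. The share of all genes called in these last fits is not given, so nothing is read from their counts. In the other 7 comparisons the count stayed at 0 under every alternative run. There edgeR called 0% to 9.99% of all genes, and DESeq2 0% to 15.8% of those it tested. The 18 lists gave 31 calls over the 8 comparisons, 47 with DESeq2 and 8 with a covariate for reads outside genes. Of the 31, 3 were among those 8. The share of all genes called with that covariate is not given, so nothing is read from the lower count. The median alpha to beta ratio was 0.738, and 0.729 from Hba-a1 and Hbb-bs alone. The cause of these changes was not tested. No paired analysis was possible because every title number occurs in 1 sample. With 3 samples in 2 groups and 1 library setting the values of another, the precision of the fold changes is limited; reads shared by gene copies limit the values of each copy.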
